A study of Mus musculus with 2 samples.

Results

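The genes for the glutamate receptor subunits were compared between 2 RNA-seq libraries of mouse ventral midbrain, 1 labelled Ctrl and 1 labelled OE. The members were taken by gene symbol: Gria1 to Gria4 for AMPA receptors, Grik1 to Grik5 for kainate receptors, the Grin1, Grin2 and Grin3 genes for NMDA receptors, the Grid genes for delta receptors, and the Grm genes for metabotropic receptors. This gave 26 of the 31252 genes with a row, 18 ionotropic and 8 metabotropic, and the rule itself uses symbols alone. Both libraries came from mice aged 2 months with the strain label Incipient congenic C57BL/6. Both genotypes carry Cre recombinase expressed from the dopamine transporter gene Slc6a3, and OE mice also carry a CAG-S-COUP-TFII allele that expresses COUP-TFII after Cre has acted. The breeding described for the study also used a floxed Tfam allele and a tdTomato reporter, and the labels do not say whether these 2 mice carried them. Cre acts in the cells that use the dopamine transporter, whereas the RNA was taken from the whole ventral midbrain, a tissue of dopaminergic neurons, further neuron types and glia.

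Glutamate is the main excitatory transmitter of the brain. Ionotropic receptors are tetrameric ion channels: AMPA receptors carry the fast synaptic current, kainate receptors act on both sides of the synapse, NMDA receptors pass calcium when glutamate, a co-agonist and depolarization coincide, and delta receptors bind synaptic organizers of the cerebellin family. Metabotropic receptors are G protein-coupled receptors that tune synapses more slowly; group I, which includes Grm5, couples to phospholipase C, and group II (Grm2, Grm3) and group III (Grm4, Grm6, Grm7, Grm8) lower cyclic AMP. In the midbrain, glutamate from several brain regions drives the firing of dopaminergic neurons.

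The direction of every comparison rests on labels that the overexpressed gene did not bear out. Nr2f2, the mouse gene for COUP-TFII, had 637 counts in the library labelled Ctrl against 377 in that labelled OE, a log2 fold change of -1.07 with a 95% interval from counting error of -1.26 to -0.88. The files do not show whether reads of the transgene were counted under this gene. Values given in pairs stand in the order Ctrl, OE.

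The metabotropic receptors were lower in the library labelled OE, and most ionotropic subunits were at like levels in both. All 7 metabotropic receptors with enough counts lay below log2 -0.2, a fold used in the study, with a range of -0.60 to -0.22 and a median of -0.33. Of the 18 ionotropic subunits, 13 stayed within log2 0.2 in either direction, with a median of -0.03. Grik3, Grin2a and Grin3b, 3 in all, were higher, and 2 were lower (Grin2c and Grin3a). That is 16.7% higher and 11.1% lower, beside 17.9% and 16.6% of all genes compared. Grin2a (39 and 58 counts) and Grin3b (18 and 34 counts) had intervals from counting error that held 0. Grm8 and Grm4 had the largest decreases among the members, to 66.0% and 66.9% of their level in the library labelled Ctrl. Each group had 1 library, so a difference between genotypes cannot be set against the spread between animals and no p-value is given.

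The libraries held 16984336 and 21326632 counts in that order. Here CPM is a gene's counts in each 1000000 counts of its library after TMM scaling, a log2 fold change is the level in the library labelled OE over that in the library labelled Ctrl, and each interval is an exact Clopper-Pearson interval for how the 2 counts divide, which holds only counting error and speaks of these libraries rather than of the conditions. Comparisons were made for the 15246 genes whose mean count was 10 or more, with a median log2 fold change of 0.005. Of these, 17.9% lay above log2 0.2 and 16.6% below log2 -0.2, and 9.9% and 9.16% did so with a counting interval that left out 0. The interval lay above 0 for 15.8% and below 0 for 14.4%, whatever the size of the difference.

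Among the members, 25 of 26 had enough counts, each with at least 18 counts in either library. Of these 25, 3 lay above log2 0.2 and 9 below log2 -0.2, which is 12% and 36% against the shares of all genes above. The interval also left out 0 for 1 of the 3 and for 8 of the 9. It lay above 0 for 2 members and below 0 for 11, and the median over the members was -0.14. Of the 26 members, 18 had a mean count above 414.8, the median of all genes compared. Larger counts give narrower intervals, so the interval shares of members and of all genes are not at like depth. With scaling to 8 pan-neuronal markers, which moved the median of all genes to -0.11, 14 members lay below log2 -0.2, and the 7 metabotropic receptors and 7 ionotropic subunits made up this number. Under that scaling 31.6% of all genes lay below log2 -0.2. Grm6, the receptor of retinal ON bipolar cells, had 0 counts in the library labelled Ctrl against 1 in that labelled OE, under the floor of 3 counts, and was not compared.

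**Figure D1:**
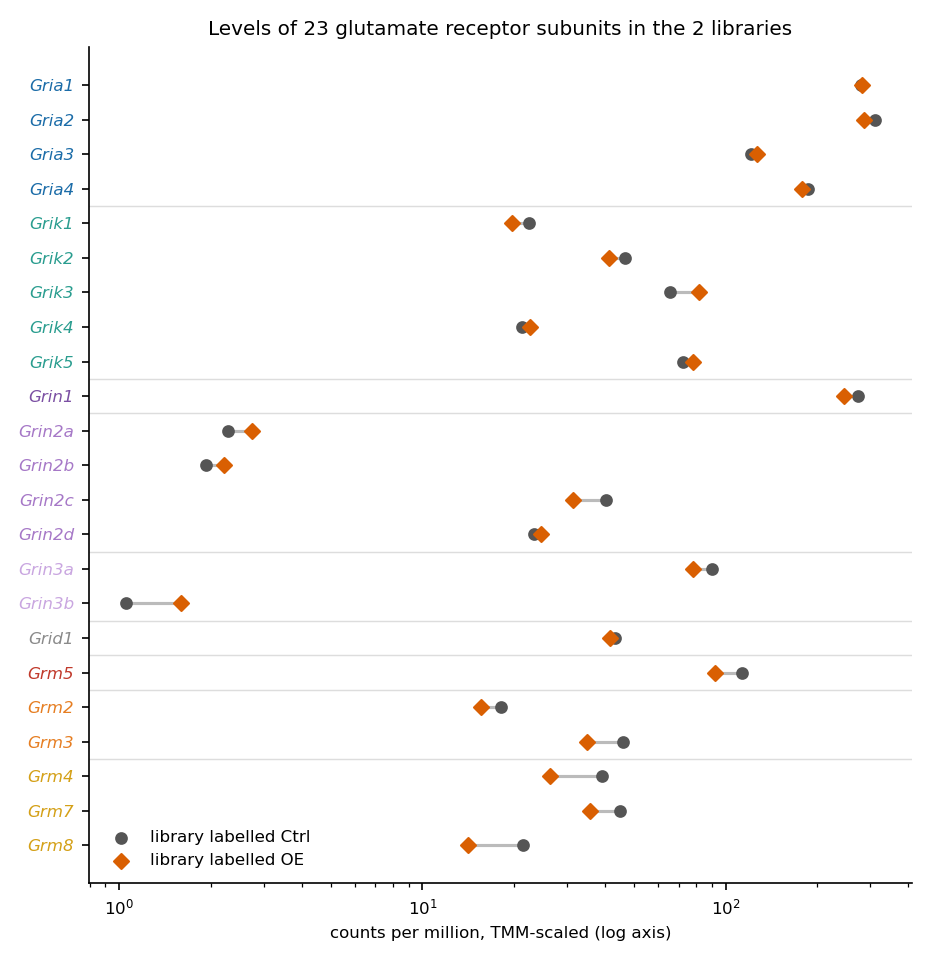
Levels of 23 of the 25 members that were compared, in CPM on a log axis, with 1 point for each library; there are no replicates and so no error bars. For each of the 6 metabotropic receptors drawn (Grm genes) the point of the library labelled OE lies to the left, whereas the AMPA subunits (Gria genes) nearly coincide.

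Before the differences, the RNA levels show which subunit genes were most expressed in the tissue, not the make-up of the receptor proteins. To compare genes, CPM was divided by the length in kilobases of the gene's longest annotated transcript. Grin1, the NMDA subunit that every NMDA receptor holds, was the highest member on this scale, with 63.8 CPM per kilobase in the library labelled Ctrl against 57.7 in that labelled OE. The 4 AMPA subunits held ranks 2 to 5 in both libraries: Gria1 had 50.5 and 50.7 CPM per kilobase, Gria4 had 34.4 and 32.9, Gria2 had 29.9 and 27.7, and Gria3 had 23.4 and 24.5. Grik5, a kainate subunit that forms channels only with Grik1 to Grik3, followed with 19.2 and 20.8. This order depends on the length used. With the median transcript length, Gria4 had 35.5 and 33.9, below Gria2 (43.1 and 39.9) and Gria3 (42.35 and 44.2). Grik5 then stood below Grm5 and Grm7, both at 25.3, in the library labelled Ctrl.

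The next places were held by metabotropic receptors and by the NMDA subunit Grin3a. Grm3 had 15.1 CPM per kilobase in the library labelled Ctrl against 11.5 in that labelled OE, Grm5 had 14.1 and 11.5, and Grin3a had 12.1 and 10.4. The order below rank 6 changed between the libraries: Grik3 moved from rank 15 to rank 11, Grm4 from 12 to 15, and Grm8 from 17 to 20. With the longest transcript as the length, ranks 1 to 6 were the same in both.

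Among the GluN2 genes, Grin2a and Grin2b stood low. Both are typical of forebrain NMDA receptors, and they had only 39 and 33 counts in the library labelled Ctrl against 58 and 47 in that labelled OE. That is 0.156 and 0.187 CPM per kilobase for Grin2a and 0.0803 and 0.0921 for Grin2b, below all members except Grm6. These values depend on the transcript models behind the counts, since the longest annotated transcripts of Grin2a and Grin2b run to 14634 and 24060 nt and the annotation used for counting is not given in the sources used here. With the median transcript length in place of the longest, Grin2b had 1.22 and 1.40 CPM per kilobase, above Grin3b at 0.644 and 0.979. Grin2b was still below Grin2d at 4.46 and 4.71 and Grin2c at 8.82 and 6.83.

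The upstream sequences of 4 members that differed between the libraries are shown here, since COUP-TFII is a nuclear receptor that binds repeats of the half-site AGGTCA. They are the 250 bases before the annotated start from RefSeq on GRCm38.p6, the assembly that mm10 names, written 5′ to 3′ on the strand of the gene, with AGGTCA in capitals on either strand where it occurs. Grm8 and Grm3 stand for the lower metabotropic receptors, Grin2c is the lower GluN2 subunit, and Grik3 is the higher kainate subunit. For Grm8 the first of its annotated starts is shown.
Grm8, chr6:28135147-28135396, minus strand: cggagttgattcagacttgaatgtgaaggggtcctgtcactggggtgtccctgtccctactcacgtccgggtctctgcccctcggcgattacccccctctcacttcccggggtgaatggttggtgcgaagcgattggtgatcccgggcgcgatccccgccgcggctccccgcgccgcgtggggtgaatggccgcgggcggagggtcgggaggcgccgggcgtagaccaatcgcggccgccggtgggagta
Grm3, chr5:9725353-9725602, minus strand: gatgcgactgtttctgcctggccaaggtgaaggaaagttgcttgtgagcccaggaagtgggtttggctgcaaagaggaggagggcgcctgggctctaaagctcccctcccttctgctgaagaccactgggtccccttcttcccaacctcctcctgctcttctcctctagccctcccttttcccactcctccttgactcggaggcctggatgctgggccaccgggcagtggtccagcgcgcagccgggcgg
Grin2c, chr11:115267244-115267493, minus strand: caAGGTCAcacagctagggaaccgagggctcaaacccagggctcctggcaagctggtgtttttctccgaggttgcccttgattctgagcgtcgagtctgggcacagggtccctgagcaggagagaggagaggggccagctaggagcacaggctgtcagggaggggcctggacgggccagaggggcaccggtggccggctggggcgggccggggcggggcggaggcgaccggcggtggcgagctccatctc
Grik3, chr4:125490446-125490695, plus strand: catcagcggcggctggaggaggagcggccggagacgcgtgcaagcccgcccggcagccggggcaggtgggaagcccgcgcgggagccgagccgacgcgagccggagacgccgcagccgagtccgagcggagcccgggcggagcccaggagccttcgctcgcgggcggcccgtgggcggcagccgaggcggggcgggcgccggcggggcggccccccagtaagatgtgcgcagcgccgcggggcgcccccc
The search covered 300 bases, 250 before to 50 after each start, on both strands. RefSeq had a window for 15 of the 26 members, 18 windows in all. Only Grin2c and Grm8 held the half-site among these 15 members: it began at base -248 from the start in Grin2c, on the strand of the gene, and at base 43 after the third start of Grm8, on the other strand. Among all genes with such a window, 18.13% of 27025 held it, and 16.26% of 32851 windows did. No motif match says that the factor binds there, and these data hold no measurement of binding.

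The metabotropic receptors are described by group. In group III, which sits mostly on axon terminals and reduces transmitter release, all 3 members with enough counts were lower. Grm8 (chr6:27275119-28135178, minus strand) had 367 counts, or 21.5 CPM, in the library labelled Ctrl against 301 counts, or 14.2 CPM in that labelled OE, which is a log2 fold change of -0.60 (95% counting interval -0.82 to -0.38). Grm4 (chr17:27422387-27521403, minus strand), the group III receptor best known from cerebellar and striatal terminals, had 670 counts (39.2 CPM) and 557 counts (26.3 CPM), and its log2 fold change was -0.58 (-0.74 to -0.42). Grm7 (chr6:110645581-111567230, plus strand), the group III receptor with the lowest affinity for glutamate, had 766 counts (44.9 CPM) and 755 counts (35.6 CPM), at -0.33 (-0.48 to -0.19). All 3 had fewer raw counts in the deeper library, and the summed counts of the group went from 1803 to 1614, a log2 fold change of -0.47 (-0.57 to -0.38).

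Group II held a neuronal and a more glial receptor. Grm3 (chr5:9485541-9725170, minus strand), which astrocytes express as well as neurons, had 785 counts (46.0 CPM) in the library labelled Ctrl against 743 counts (35.0 CPM) in that labelled OE, at log2 -0.39 (-0.54 to -0.25). Grm2 (chr9:106643095-106656082, minus strand), a presynaptic autoreceptor, had 310 counts (18.2 CPM) and 331 counts (15.6 CPM), at -0.22 (-0.45 to 0.01). Grm2 was the only 1 of the 7 whose counting interval held 0.

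Group I sits around the postsynaptic density and releases calcium from internal stores. Grm5 (chr7:87584168-88134907, plus strand) had 1941 counts (113.7 CPM) in the library labelled Ctrl against 1959 counts (92.3 CPM) in that labelled OE, at log2 -0.30 (-0.39 to -0.21). The raw counts were nearly equal, and the decrease came with the larger depth of the library labelled OE. The summed counts of group II had a log2 fold change of -0.34 (-0.46 to -0.22), whose interval overlapped that of group III.

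**Figure D2:**
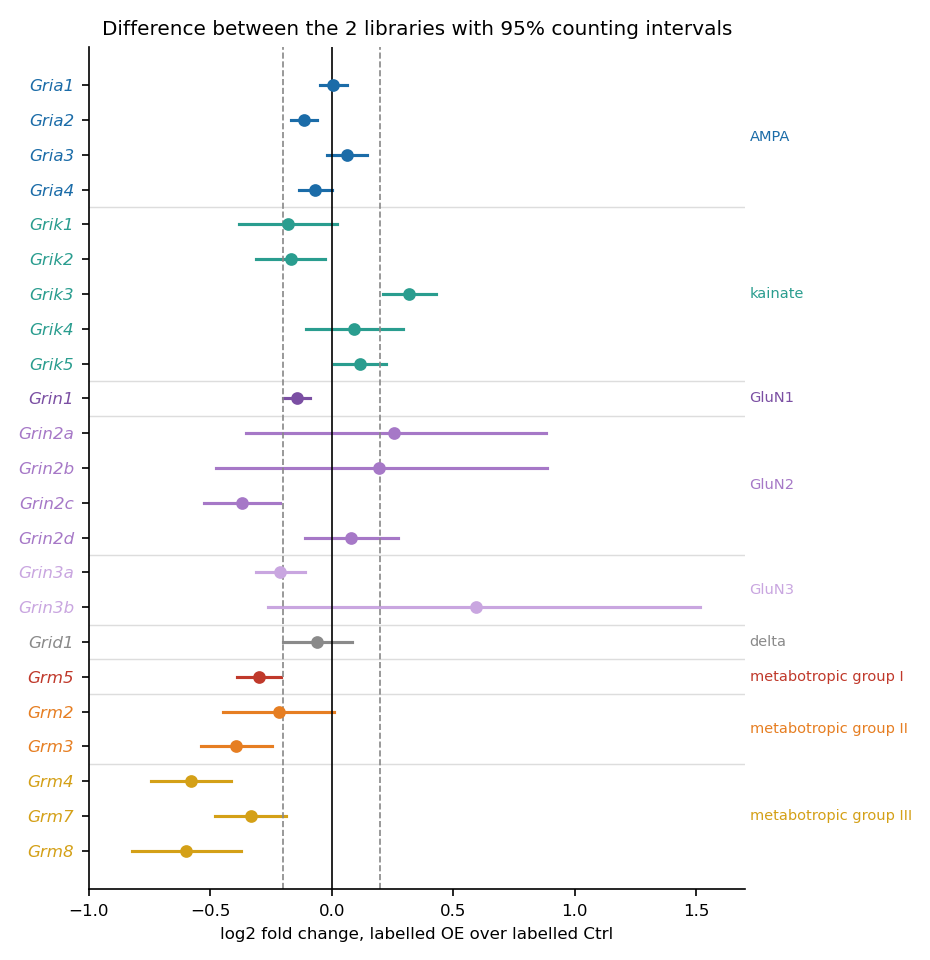
Log2 fold change of 23 of the 25 members (points) with its exact 95% counting interval (bars), coloured by family; dashed lines mark log2 0.2 in either direction. All 6 metabotropic points drawn lie left of the dashed line, from -0.60 (Grm8) to -0.22 (Grm2), and the 4 AMPA points lie between the dashed lines under this scaling (TMM).

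Among the AMPA subunits, none passed log2 0.2, except Gria2 at -0.23 when the libraries were scaled to the pan-neuronal markers. Gria1 (chr11:57011387-57330244, plus strand) had 4778 counts (279.8 CPM) in the library labelled Ctrl against 5964 counts (281.1 CPM) in that labelled OE, at log2 0.01 (-0.05 to 0.06). Gria3 had 2078 counts (121.7 CPM) and 2697 counts (127.1 CPM), at 0.06 (-0.02 to 0.15), and Gria4 had 3199 counts (187.4 CPM) and 3792 counts (178.7 CPM), at -0.07 (-0.14 to 0.0005). Gria2 (chr3:80681450-80802835, minus strand), whose edited protein makes AMPA channels nearly impermeable to calcium, was the only AMPA subunit whose interval left out 0: 5298 counts (310.3 CPM) against 6089 counts (287.0 CPM), at -0.11 (-0.17 to -0.06). Its share of all AMPA counts was 34.51% (33.76 to 35.27) in the library labelled Ctrl against 32.84% (32.16 to 33.52) in that labelled OE. The intervals of these shares did not overlap, and the difference was -1.67 percentage points.

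The kainate subunits differed in direction. Grik3 (chr4:125490700-125714173, plus strand), a low-affinity kainate subunit, had 1118 counts (65.5 CPM) in the library labelled Ctrl against 1734 counts (81.7 CPM) in that labelled OE, at log2 0.32 (0.21 to 0.43). It was the only member that was higher by more than log2 0.2 with an interval that left out 0. Grik5 was higher by less, with 1233 counts (72.2 CPM) and 1661 counts (78.3 CPM), at 0.12 (0.01 to 0.22), or -0.00064 when the libraries were scaled to the pan-neuronal markers. Grik4, like Grik5 a high-affinity partner subunit, had 364 counts (21.3 CPM) and 482 counts (22.7 CPM), at 0.09 (-0.11 to 0.29).

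Grik1 and Grik2 lay on the other side of 0. Grik2 had 793 counts (46.4 CPM) and 876 counts (41.3 CPM), at -0.17 (-0.31 to -0.03), and Grik1 had 383 counts (22.4 CPM) and 420 counts (19.8 CPM), at -0.18 (-0.38 to 0.02). The share of Grik3 in all kainate counts was 28.73% (27.31 to 30.18) in the library labelled Ctrl against 33.52% (32.23 to 34.83) in that labelled OE, whereas that of Grik2 was 20.38% (19.12 to 21.68) and 16.93% (15.92 to 17.98). These shares need no scaling between the libraries, and the intervals did not overlap for either gene. Summed over the family, kainate counts had a log2 fold change of 0.10 (0.04 to 0.16), the only family sum above 0, which does not exceed the median of the pan-neuronal markers, 0.12.

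Among the NMDA subunits, the obligatory subunit differed little. Grin1 (chr2:25291181-25319187, minus strand) had 4654 counts (272.6 CPM) in the library labelled Ctrl against 5230 counts (246.5 CPM) in that labelled OE, at log2 -0.14 (-0.20 to -0.09). Grin2c (chr11:115249169-115267243, minus strand), a GluN2 subunit of cerebellar granule cells, thalamus and some astrocytes that gives channels with weak magnesium block, had 691 counts (40.5 CPM) and 665 counts (31.4 CPM), at -0.37 (-0.52 to -0.21). Grin2d, the GluN2 subunit of brainstem and midbrain neurons, had 399 counts (23.4 CPM) and 524 counts (24.7 CPM), at 0.08 (-0.11 to 0.27). As a share of all GluN2 counts, Grin2c was at 59.47% (56.58 to 62.31) in the library labelled Ctrl against 51.39% (48.63 to 54.15) in that labelled OE, and Grin2d was at 34.34% (31.61 to 37.15) and 40.49% (37.81 to 43.23). Grin2c was thus the most counted GluN2 subunit in both libraries, by less in the library labelled OE.

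The 3 least counted NMDA subunits had intervals that held 0. Grin2a had 2.28 and 2.73 CPM, at log2 0.26 (-0.35 to 0.88), Grin2b had 1.93 and 2.22 CPM, at 0.19 (-0.48 to 0.89), and Grin3b, known from motor neurons, had 18 counts (1.05 CPM) and 34 counts (1.60 CPM), at 0.59 (-0.26 to 1.52). A difference of the size seen in the metabotropic receptors was not detectable at this depth for these genes. Grin3a (chr4:49661611-49845744, minus strand), a glycine-binding subunit that lowers the calcium flow of NMDA receptors, had 1544 counts (90.4 CPM) and 1656 counts (78.1 CPM), at -0.21 (-0.31 to -0.11). Over the 7 NMDA genes the median log2 fold change was 0.08, which is the value of Grin2d, with the 3 genes with few counts above it. That of the summed counts was -0.16 (-0.20 to -0.11), and the sum rests mostly on Grin1 and Grin3a.

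Grid1, the delta subunit found across the brain, differed little between the libraries. It had 739 counts (43.3 CPM) in the library labelled Ctrl against 881 counts (41.5 CPM) in that labelled OE, at log2 -0.06 (-0.20 to 0.08).

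**Figure D3:**
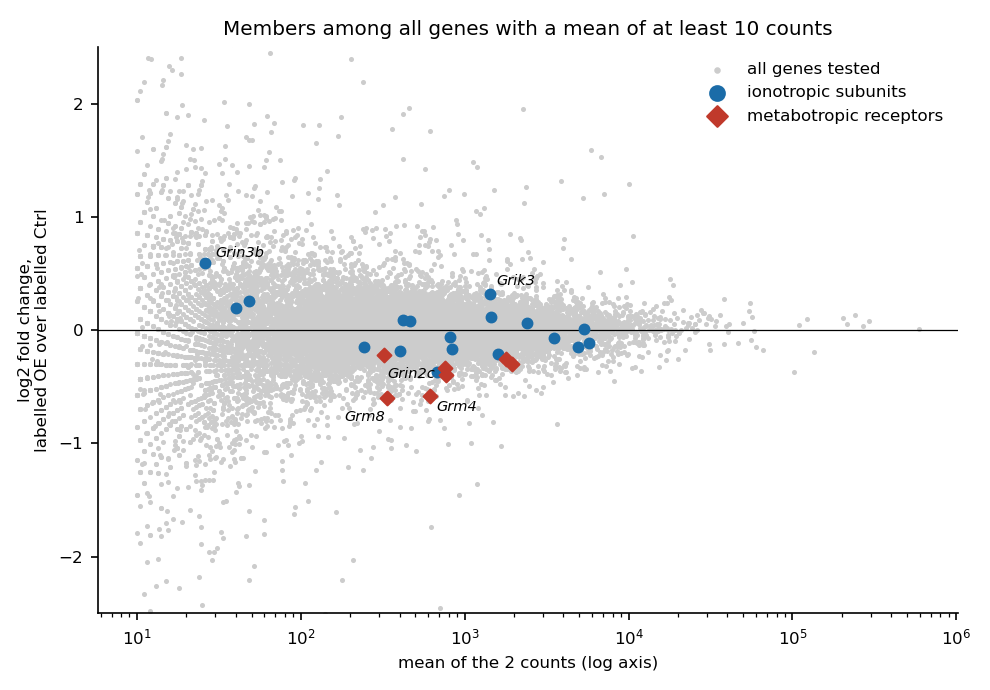
Log2 fold change against the mean of the 2 counts (log axis) for all 15246 genes compared (grey), with ionotropic subunits as blue circles and metabotropic receptors as red diamonds; 52 genes beyond log2 2.5 in either direction are not drawn. The members lie inside the cloud of all genes, the metabotropic receptors in its lower part and Grik3 in its upper part.

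The make-up of the receptor counts differed without any scaling between the libraries. Metabotropic receptors took 6581 of the 34170 counts of all members in the library labelled Ctrl, or 19.26% (18.84 to 19.68), and 6458 of 39523 in the library labelled OE, or 16.34% (15.98 to 16.71). The difference was -2.92 percentage points. AMPA subunits went from 44.93% to 46.91% and kainate subunits from 11.39% to 13.09%, whereas Grin1 went from 13.62% to 13.23%. After scaling, the log2 fold change of the summed counts was -0.34 (-0.39 to -0.29) for metabotropic receptors and -0.05 (-0.08 to -0.03) for ionotropic subunits. For the AMPA subunits it was -0.04 (-0.07 to -0.01), so their share was larger without a higher summed level.

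**Figure D4:**
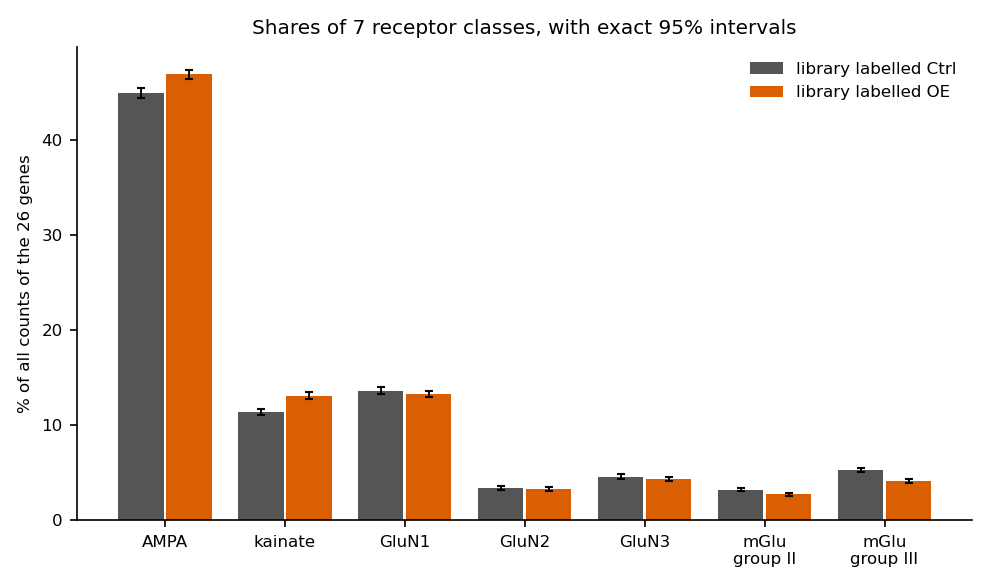
Share of 7 of the 9 receptor classes in all counts of the 26 genes, in percent, for the library labelled Ctrl (grey) and the library labelled OE (orange); bars start at 0 and whiskers are exact 95% binomial intervals. The shares of metabotropic (mGlu) groups II and III are lower in the library labelled OE, and the shares of the AMPA and kainate classes are higher.

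Other genes of glutamate signalling differed in both directions. Of 67 genes in 6 lists, 8 lay above log2 0.2 and 12 below log2 -0.2, with a median of -0.01. These are shares of 11.9% and 17.9%, beside 17.9% and 16.6% of all genes. Among 13 AMPA auxiliary subunits, 2 were higher and none lower, with a median of 0.03. Gsg1l, which slows recovery of AMPA receptors from desensitization, had 607 counts in the library labelled Ctrl against 1054 in that labelled OE, at log2 0.48 (0.34 to 0.63). Cacng8, a TARP that aids surface delivery of AMPA receptors, had 149 and 249 counts, at 0.43 (0.13 to 0.73). Both kainate auxiliary subunits, Neto1 and Neto2, stayed within log2 0.2.

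The secreted and membrane proteins that bind these receptors from outside spread the most, with 5 of 11 higher and 3 lower. That is 45.45% higher and 27.27% lower, beside 17.9% and 16.6% of all genes. C1ql2, which recruits kainate receptors at hippocampal mossy fibre synapses, had 235 counts in the library labelled Ctrl against 990 in that labelled OE, at log2 1.76 (1.56 to 1.97). Nptxr, the neuronal pentraxin receptor, had 86.7 and 247.5 estimated counts, at 1.20 (0.83 to 1.56), and Cbln1, the cerebellin that bridges neurexin to delta receptors, had 653 and 1680 counts, at 1.05 (0.92 to 1.18). Some relatives of both genes went the other way. Cbln2 had 1276 and 579 counts, at -1.45 (-1.60 to -1.31). Nptx2, a pentraxin that clusters AMPA receptors, had 142 and 69 counts, at -1.35 (-1.79 to -0.93). Nptx1 was at -0.22 (-0.32 to -0.11), whereas Cbln3 and Cbln4 stayed within log2 0.2. The delta subunit Grid1 itself stayed within log2 0.2.

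Inside the postsynaptic neuron, 17 of 20 scaffold and kinase genes stayed within log2 0.2. Grip2, which binds the tails of Gria2 and Gria3, was higher, with 1249 and 2365 counts, at log2 0.61 (0.51 to 0.71). Camk2a, a kinase of the postsynaptic density, was lower, with 4298 and 3007 counts, at -0.83 (-0.90 to -0.76), as was the scaffold Shank3, at -0.39 (-0.50 to -0.27). Of 10 genes in the pathway below group I receptors, 4 were lower and none higher, with a median of -0.08. The lower share is 40%, where 16.6% of all genes were lower and 17.9% higher. Plcb3, a phospholipase C, had 336 and 350 counts, at -0.25 (-0.47 to -0.03).

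On the supply side, 3 of 11 genes were lower and none higher. The lower share is 27.27%, where 16.6% of all genes were lower and 17.9% higher. Slc17a7, the vesicular glutamate transporter of cortical and cerebellar neurons, had 231 counts in the library labelled Ctrl against 50 in that labelled OE, at log2 -2.51 (-2.99 to -2.08). Slc17a6, its counterpart in thalamus and midbrain, had 6340 and 6727 counts, at -0.23 (-0.28 to -0.18), and the uptake transporter Slc1a6 was at -0.29 (-0.54 to -0.04).

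**Figure D5:**
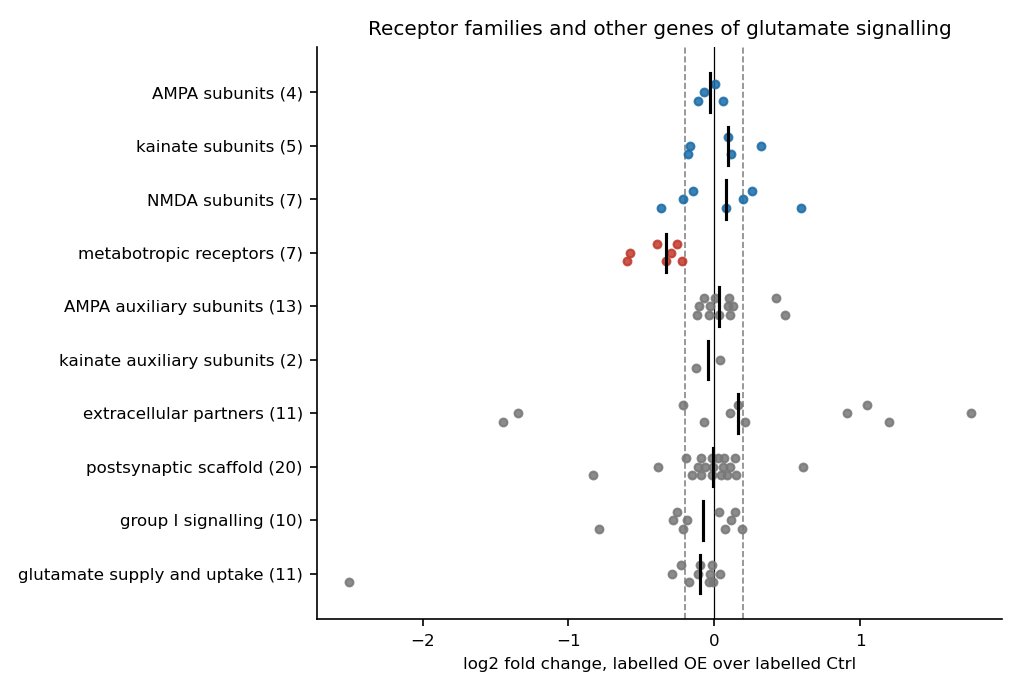
Log2 fold change of each gene (points) in 4 receptor families and in 6 lists of other glutamate signalling genes, with the number of genes in brackets, the median of each row as a black bar and log2 0.2 in either direction as dashed lines. The metabotropic row is the only one whose points all lie outside the dashed lines on 1 side, and the extracellular partners spread from -1.45 (Cbln2) to 1.76 (C1ql2).

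Markers of cell types and of neighbouring regions differed between the libraries as well. In bulk tissue, fewer cells of a type and less RNA per cell cannot be told apart. Each of the 13 markers of dopaminergic neurons was higher under the label OE, by log2 0.79 to 2.00 with a median of 1.29, and their summed level went from 1498 to 3550 CPM, Aldh1a1 having the highest mean count (389.4 and 693.2 CPM). All 10 thalamic markers were lower, with a median of -2.03 and a summed level of 603.1 and 218.3 CPM, and Gbx2 had 0 counts under the label OE, while Ntng1, which had the highest mean count and the smallest decrease of the 10, had 112.7 and 75.6 CPM. All 8 oligodendrocyte markers were below 0, 5 of them past log2 0.2, with a median of -0.32 and a summed level of 19514 and 16334 CPM, led by Mbp with 7554 and 6590 CPM. Microglial markers had a median of -0.32 (4 of 7 lower, 269.1 and 213.6 CPM in sum).

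The remaining lists moved less or were scarcely counted. Astrocyte markers had a median of -0.10 (1 of 7 lower, 1454 and 1382 CPM, led by Aqp4 with 387.9 and 333.7 CPM), the 2 markers of oligodendrocyte precursors -0.08 (116.3 and 109.7 CPM, led by Pdgfra), the 3 GABAergic markers -0.07 (997.7 and 969.0 CPM, led by Gad1) and the 8 pan-neuronal markers 0.12 (3 higher, 1 lower, 6089 and 6709 CPM, led by Snap25). Markers of cerebellum summed to 3.87 and 2.78 CPM, led by Neurod1, with Gabra6 at 0 counts in the library labelled Ctrl. Markers of cerebral cortex summed to 3.98 and 7.87 CPM, led by Neurod6. Those of hypothalamus summed to 12.01 and 3.63 CPM, led by Pmch in mean count, with 4 of 4 lower and a median of -2.65. The interval lay below 0 for 2 of these 4 and held 0 for Pmch, at log2 -0.26 (-0.82 to 0.30). The labels name dopaminergic neurons as the cell type, whereas these glial and GABAergic markers were abundant in both libraries. The part of these differences in the levels of the metabotropic receptors, Grin2c, Grin3a and Grik3 was not tested, and with 1 library per group the genotype, the mouse and the dissection cannot be told apart.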

How the data were processed

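The study sequenced ventral midbrain RNA of 2 mice, 1 library per group, as stranded libraries of polyadenylated RNA read over 50 bp from both ends. The sequencing company's pipeline estimated gene counts with RSEM, and these expected counts were deposited unscaled by the authors, in 1 table with a column for each library; 95.41% of the values were whole, as were all those of the 26 members. The submitters' processing notes name mm10; the aligner, the RSEM version and the annotation are not given in the sources used here. Groups were taken from the labels, in which the library called Ctrl here is titled Control.

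Counts were scaled with TMM in edgeR 4.0.16 (R 4.3.3), and log2 fold changes were computed with 0.5 added to each normalized count, for genes whose mean count was 10 or more. No count model was fitted, since 1 library per group leaves no estimate of the spread between animals. Exact 95% intervals came from scipy 1.17.1, on counts rounded to whole numbers. The calculation was tested on simulated Poisson counts, which hold counting error alone. They cannot show how the intervals behave with the spread between animals or with fractional estimated counts. At 1 simulated fold size the intervals held the true value less often than the bound first set for the test, and the bound was then changed to coverage pooled over all fold sizes. A count below 3 was treated as not distinguishable from 0. Gene positions and transcript lengths came from GENCODE M21 on GRCm38, matched by symbol for all 26 members, and upstream windows from RefSeq. The members and the lists of other genes were chosen with earlier results of these data known. The rule for names took all members, Nr2f2, at most the 3 highest and 3 lowest genes of each pathway list past log2 0.2 with a mean of at least 100 counts, and the counts, sum and most abundant gene of each marker list. The separate results of 2 members and 3 listed genes are not reported here. Gbx2, Gabra6, Neto1, Neto2, Cbln3 and Cbln4 were named in addition where a statement needed them, after their values were seen. Of the listed genes, Shisa8 had no row under that symbol. Alternatives were other scalings (total counts, upper quartile, DESeq2 1.42.0 size factors, pan-neuronal markers), a pseudocount of 5, other count minimums, a threshold of log2 0.5, a counting interval added to the threshold, and other transcript lengths.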

Additional observations from a re-analysis of the deposited data

How the results depend on the processing

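All 7 metabotropic receptors stayed lower by more than log2 0.2 under every scaling, with a pseudocount of 5 and with other count minimums. The count minimums could not remove any of them, since the smallest mean count among the 7 was 320.5 (Grm2). Grm2 was at -0.205 with upper-quartile scaling, near the threshold. When the interval also had to leave out 0, 6 stayed lower, and 2 did so at a threshold of log2 0.5. Their median ranged from -0.45 to -0.32, that of all members from -0.26 to -0.13, that of the ionotropic subunits from -0.14 to -0.01, and Nr2f2 from -1.19 to -1.06. Scaling to the pan-neuronal markers moved the median of all genes to -0.11, with 31.6% of genes lower and 10.4% higher; 14 members and 7 ionotropic subunits were then lower, Gria1 and Gria3 lay at -0.11 and -0.05, Grik3 was at 0.20 and Grik5 turned to -0.00064. With upper-quartile scaling 1 ionotropic subunit was lower. With no count minimum, 1 metabotropic receptor was higher (Grm6, on 1 count). With a mean of at least 100 counts, or with an interval that left out 0, 1 member was higher, an ionotropic one. At the minimum of 100 counts, 12.97% of all genes were higher and 11.73% lower. At log2 0.5, 1 member was higher, the ionotropic Grin3b (18 and 34 counts), and 2 were lower, with 0 ionotropic subunits among them. At that threshold 5.59% of all genes were higher and 5.03% lower.

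Dividing counts by the median transcript length in place of the longest moved the share differences within a family (OE minus Ctrl) from -1.91 to -3.86 points for Grik2, from 0.19 to 2.21 for Grin2b, from -1.88 to -3.51 for Grin3a and from 1.88 to 3.51 for Grin3b; with no length division Grin3a was at -0.86 and Grin3b at 0.86. Only the length used for each gene changed between these settings, so these shifts concern the length and not what sets the libraries apart. With no length division Grik2 was at -3.45 points and Grin2b at 0.79. No paired analysis was possible because a single library stands for each genotype, and for the same reason no replicate could be left out. Depth limits Grin2a, Grin2b, Grin3b and Grm6, whose counts were between 0 and 58.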
